A study of Mus musculus with 2 samples.

Results

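Osteopontin, the product of Spp1, and 9 genes grouped with it were examined in ureters that lack Pparg function in the epithelium. The genes are Spp1, Cd44, Thbs1, Thbs2, Tnc, Sparc, Postn, Ctgf, Cyr61 and Mgp, that is 10 of the 29923 genes measured, and all of their probes were kept, 16 of 39429. Spp1 was chosen on its measured rise in these arrays and the others from their known function, so the values of these 10 genes are given as a description and without a test. Of the 10, Cd44 encodes a cell surface receptor rather than a secreted protein. The array design uses the older names Ctgf and Cyr61 for the genes that RefSeq lists as Ccn2 and Ccn1.

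Ureters were dissected from E18.5 embryos of the NMRI strain. Pparg-cKO embryos carried 1 copy of Pax2-cre together with floxed Pparg on both alleles (genotype Pax2-cre/+; Pparg(fl/fl)), and control embryos were Pparg(fl/?), a genotype with 1 floxed allele named and the other not stated. Per the study's methods the controls were littermates without cre. Per the study's methods each RNA came from a pool of sex-sorted ureters. Pax2-cre recombines in the nephric duct and the epithelia derived from it, so the mesenchymal cells of the ureter keep Pparg, and whole ureters rather than sorted cells were measured. A female Pparg-cKO pool was hybridised against a female control pool on 1 array, and a male pair on the other, with the dyes exchanged. There were thus 4 pools on 2 arrays. Sex, dye orientation and array changed together and cannot be told apart.

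Matricellular proteins are secreted into the extracellular matrix, where they modulate cell adhesion and growth factor signalling more than they bear load. Osteopontin is an acidic phosphoprotein that binds integrins through an arginine-glycine-aspartate motif and also engages Cd44. It is abundant in bone, is secreted by many epithelia including those of the urinary tract, is known from urine as an inhibitor of calcium oxalate crystal growth, and is made by macrophages and by injured epithelium.

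The sequences that the readings rest on are shown first, because Spp1 was measured by a single probe while the probes of Cd44, Tnc and Sparc did not give the same ratio. Each probe is 60 bases long, and its first 30 bases are printed 5′ to 3′ in lower case as the array design gives them. Positions are on mouse build mm9, and exon structure on that build was not analysed here. The probe of Spp1 lies at chr5:104868502-104868561 on the plus strand. The probes of Cd44 lie on the minus strand at chr2:102654278-102654337 (probe 1, the brightest), chr2:102651398-102651457 (probe 2), chr2:102672645-102672704 (probe 3) and chr2:102677971-102678030 (probe 4), so that probe 4 is the most 5′ and probe 2 the most 3′. Those of Tnc lie on the minus strand at chr4:63643728-63643787 (probe 1) and, over 764 bases of genome, at chr4:63674248-63675011 (probe 2). Those of Sparc lie on the minus strand at chr11:55208939-55208998 (probe 1), chr11:55208002-55208061 (probe 2) and chr11:55207772-55207831 (probe 3).
Spp1: aggtgatagcttggcttatggactgaggtc
Cd44 probe 1: gacgagacccggaatctgcagagtgtggac
Cd44 probe 2: tcagaggcagctggcatcctttgttttgtt
Cd44 probe 3: tacattacatggagagccggaagaagacga
Cd44 probe 4: acagatttcttcgacccaatctcacatcca
Tnc probe 1: agggacataacaggtctcagagaggccact
Tnc probe 2: tcctctagacattgctttcgaaacatggga
Sparc probe 1: ggctgttccgcctggggataaggtgctaac
Sparc probe 2: acagcaatgtgaagagcttgacaagtcttt
Sparc probe 3: tttaacacatgaagaagccagttcctgggc

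The single probes of the remaining genes lie at chr2:117952585-117952644 (Thbs1), chr17:14804526-14805789 (Thbs2, over 1264 bases of genome), chr3:54194840-54194899 (Postn), chr10:24318281-24318340 (Ctgf), chr3:145310187-145310246 (Cyr61) and chr6:136821125-136821184 (Mgp), again on mm9.

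The promoter of Spp1 is shown because Spp1 was the 1 gene of the 10 with a large ratio. The 250 bases before its start, from RefSeq on build GRCm38.p6 (chr5:104434861-104435110, plus strand), hold in capitals the RUNX core TGTGGT, here on the opposite strand as ACCACA and starting 128 bases before the start. RUNX factors are known regulators of Spp1 in bone.
Spp1 promoter: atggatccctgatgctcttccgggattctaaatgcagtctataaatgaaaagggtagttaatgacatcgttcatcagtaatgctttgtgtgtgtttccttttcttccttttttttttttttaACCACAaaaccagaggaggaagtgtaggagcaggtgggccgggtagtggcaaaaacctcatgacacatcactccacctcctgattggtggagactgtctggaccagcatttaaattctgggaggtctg

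RefSeq promoter windows of 300 bases were found for 7 of the genes, 10 windows in all (Spp1, Cd44, Thbs2, Tnc, Sparc, Postn and Cyr61), and each was searched on both strands. TGTGGT was in windows of Spp1 and Sparc, and in 16.8% of all 32851 windows. AGGTCA, the nuclear receptor half-site, was in a window of Postn alone and in 16.3% of all windows. The direct repeat bound by PPARG with its partner RXR, AGGTCA repeated after 1 base of spacing, was in 0 of the 10 windows and in 0.0396% of all. GGAATG, the TEAD core, was in the window of Cyr61 and in 14.7% of all, while the AP-1 core TGANTCA was in none of the 10 and in 7.81% of all. These are matches of letters in short windows and say nothing of binding.

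The direction of every ratio rests on a choice. Ratios are given as Pparg-cKO over control in the direction of the deposited value table, which opposes the dye labels as written on both arrays. That direction is likely, since the table is titled as Pparg-cKO against control and since the genes lowered in the study's tissue sections, Krt20 and Shh, then come out lower. Should the dye labels hold instead, each higher and lower below is exchanged, while sizes stay. Krt20, a keratin of superficial (S) cells, had log2 ratios of -3.14 (female pools) and -3.03 (male pools). Shh, the hedgehog ligand of the urothelium, had -1.72 and -1.09. Pparg itself read 12357 signal units in the female Pparg-cKO pool against 6113 in the control, and 12929.6 against 6688 in the male pools. This targeted gene was therefore measured at a higher level in the Pparg-cKO pools, at a mean log2 ratio of 0.97 ± 0.02 (SD, n = 2 arrays; limma adjusted p = 0.0373). Under 8 alternatives that p ran from 0.00332 to 0.533 and passed the threshold of 0.05 in 4. Whether its probe falls inside or outside the floxed exons was not analysed here, so this does not check the genotype labels. By in situ hybridisation, the study detected more of a Pparg mRNA lacking the floxed exons in mutant than in control epithelium at this stage.

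Spp1 read 132 signal units in the female control pool and 894 in the female Pparg-cKO pool, and 183 in the male control pool and 1329 in the male Pparg-cKO pool. Both Pparg-cKO pools lay far above both control pools. The log2 ratio, taken after background correction with an offset and normalisation between the dyes, was 2.48 for the female pair and 2.67 for the male pair, and the mean was 2.58 ± 0.13 (SD, n = 2 arrays). Osteopontin transcript was thus 5.97-fold higher in Pparg-cKO ureters and held rank 4 from the top among 14015 genes bright enough for the fold rule. That rank depends on the background offset. Without the offset, and with the processed signals of the scanner software, Arhgef38, Clca1 and Tspan1 moved above Spp1 on both arrays. By the fold rule, a gene differs if it is changed at least 1.5-fold in the same direction on each array and its brighter channel reads at least 100 signal units on each. Spp1 passed it and the other 9 genes did not. The rule was passed by 1.84% of all bright genes, 0.792% higher and 1.05% lower. Since Spp1 was selected on this contrast, nothing is read from its passing.

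The spots of the Spp1 probe held together. On the female array the 3 spots kept had log2 ratios of 2.36, 2.51 and 2.57, and the spot left out for an outlier flag had 2.74. On the male array the 4 spots ran from 2.62 to 2.79. Repeated spots measure the same labelled RNA and are not replicates of the condition. With 7 other ways of processing the signals the mean log2 ratio of Spp1 ran from 2.58 to 2.81, the highest with the processed signals of the scanner software.

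In whole ureters, more cells of a type and more RNA per cell cannot be told apart, and osteopontin is made by several cell types. Markers of those types were therefore read beside Spp1. Macrophage markers summed to 3822 signal units in the Pparg-cKO and 3762 in the control pool of the female pair, and to 3601 and 3527 in the male pair. Of the 7 macrophage markers 0 were called by the limma test described below, with 0 at an unadjusted p under 0.05, and Cd68 had the highest mean log2 ratio at 0.21. The part of macrophages in the Spp1 values was not tested. Of the 5 collecting duct markers tested 1 was called, beside 0.751% of all genes tested. This was Fxyd4, a regulator of the sodium pump, which read 536 against 77.4 in the female and 596 against 109 in the male pools. Its mean log2 ratio was 2.38 ± 0.21 (SD, n = 2 arrays), at a limma adjusted p of 0.00620. Over 8 alternatives that p ran from 3.05e-06 to 0.533, and only the deposited table ended the call. Aqp2, the water channel that defines collecting duct principal cells, read 23.9 against 28.1 in the female and 21.8 against 25.8 in the male pools, and Atp6v1b1 of intercalated cells was not well above background. The 5 collecting duct markers tested summed to 594 against 145 in the female and 662 against 174 in the male pools, most of it Fxyd4, and the part of such cells in the Spp1 values was not tested. Of the other kidney tubule markers Slc12a1, Slc12a3 and Umod were not well above background, and the 3 that were tested summed to 163 against 195 in the female and 119.8 against 224 in the male pools. Of the 5 bone and cartilage markers 1 was called, beside 0.751% of all genes tested. This was Bglap, which was lower and is described with the mineral genes. In limma 2 of the markers had an unadjusted p under 0.05, beside 8.51% of all genes tested. The other of these was Col2a1, the cartilage collagen gene, which read 106 against 77.2 in the female and 226 against 106 in the male pools, with a mean log2 ratio of 0.66 ± 0.49 (SD, n = 2 arrays; limma adjusted p = 0.388). Acan, Runx2 and Sp7 had mean log2 ratios from 0.04 to 0.06, and Runx2 read at most 3.0 signal units. The 5 markers summed to 164 against 242 in the female and 287 against 224 in the male pools, and their part in the Spp1 values was not tested.

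**Figure D1:**
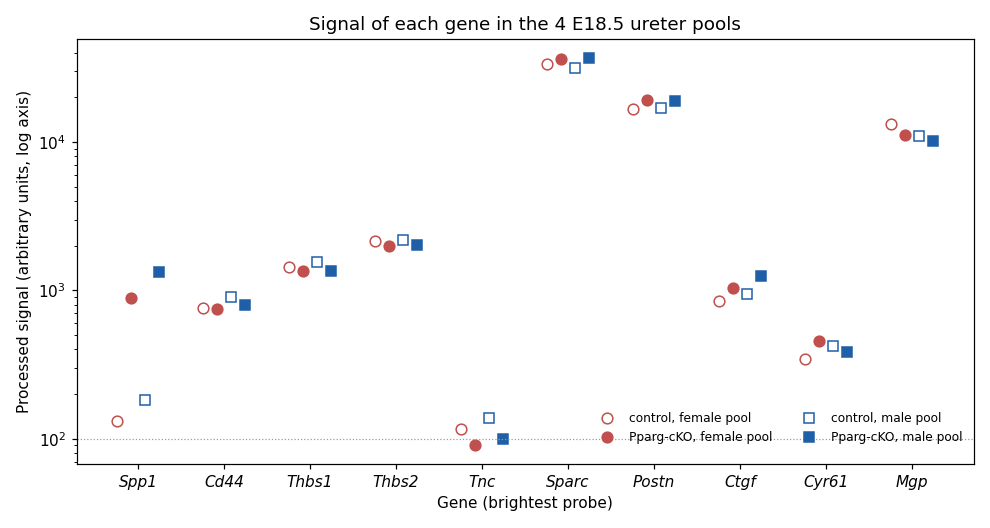
Processed signal (arbitrary units, log axis) of the brightest probe of each of the 10 genes in the control (open) and Pparg-cKO (filled) pools of female (circles) and male (squares) embryos, 1 point per pool; the dotted line is the intensity threshold of 100. For Spp1 the filled points (894 and 1329) stand far above the open ones (132 and 183), while for the other genes the 4 points lie close together; heights of different genes cannot be compared, because each is read by its own probe.

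The thrombospondins, large glycoproteins that bind Cd36, Cd47 and integrins and restrain vessel growth, read slightly lower in both Pparg-cKO pools. Thbs1, which also activates latent TGF-beta, read 1357 against 1449 signal units in the female and 1342 against 1562 in the male pools. Its mean log2 ratio was -0.15 ± 0.07 (SD, n = 2 arrays). Thbs2 read 1999 against 2153 and 2036 against 2175, with a mean log2 ratio of -0.10 ± 0.05. For both genes the higher Pparg-cKO pool stayed below the lower control pool.

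Tnc encodes tenascin C, a large glycoprotein of developing and remodelling tissue that surrounds mesenchymal cells. Its brighter probe read 91.3 in the Pparg-cKO and 116 in the control pool of the female pair, and 99.8 against 138 in the male pair. The log2 ratios averaged -0.35 ± 0.10 (SD, n = 2 arrays), the lowest of the 10 genes. Probe 2 of Tnc gave no such difference, with log2 ratios of -0.08 and 0.24, but its signals were only 9.53 to 18.48 and not every spot was well above background. The 2 probes thus disagreed, and the median of both, -0.14, was nearer to 0 than the value of probe 1. With that median Tnc was no longer the lowest, since Mgp had -0.18 and Thbs1 -0.15.

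Sparc, a collagen-binding glycoprotein, and Postn, or periostin, which links collagen and integrins, are typical products of fibroblasts and smooth muscle precursors. Sparc probe 1 read 36141 against 33401 signal units in the female and 36783.5 against 31493 in the male pools. The log2 ratio was 0.18 and 0.17, a mean of 0.17 ± 0.01 (SD, n = 2 arrays). Probe 2 of Sparc gave 0.35 and 0.55, and the dim probe 3 gave 0.03 and 0.02, so all 3 probes were on the same side of 0 with mean log2 ratios from 0.03 to 0.45. Postn read 19276 against 16835 in the female and 18883.5 against 16911 in the male pools, with a mean log2 ratio of 0.21 ± 0.04. Fibroblast markers beside them had a median log2 ratio of 0.10 (5 genes, 0 called in limma, 1 at an unadjusted p under 0.05, beside 8.51% of all genes tested). Col1a1, a fibrillar collagen gene, read 28646 against 27307 in the female but 41673 against 19760.5 in the male pools. Of the 5 fibroblast markers 2 were higher on both arrays and 2 lower on both, the latter being Lum (-0.10 and -0.01) and Aldh1a2 (-0.18 and -0.27), while Col3a1 had 0.21 and -0.02. Smooth muscle markers had a median of -0.17 (4 genes, 0 called, 0 unadjusted). Their part in the values of Sparc and Postn was not tested.

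Ctgf and Cyr61 encode secreted proteins of the CCN family and are widely used readouts of YAP and TEAD activity. Ctgf read 1043 against 849.6 signal units in the female and 1254 against 941 in the male pools. Its log2 ratio was 0.23 and 0.56, a mean of 0.39 ± 0.24 (SD, n = 2 arrays), and neither array reached 1.5-fold. Cyr61 read 459 against 344 in the female pools but 386 against 424 in the male pools. With log2 ratios of 0.39 and -0.10 its mean of 0.14 was smaller than its SD of 0.35, so the arrays did not give it a common direction.

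Mgp encodes matrix Gla protein, a vitamin K-dependent inhibitor of soft tissue calcification. Its signal was 11221 against 13185.5 in the female and 10109 against 11024 in the male pools. The log2 ratios averaged -0.18 ± 0.10 (SD, n = 2 arrays), lower on both arrays, although the female Pparg-cKO pool exceeded the male control pool.

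Cd44, the hyaluronan receptor that also binds osteopontin, read 744 against 757 signal units in the female and 795 against 908 in the male pools at probe 1. Its log2 ratio was 0.03 and -0.16, a mean of -0.07 ± 0.13 (SD, n = 2 arrays). Probe 2 read 357 against 300.0 and 318 against 389.9, and its log2 ratio of 0.18 and -0.25 changed sign between the arrays. Probe 3 read 51.1 against 71.3 and 51.1 against 62.7, with log2 ratios of -0.36 and -0.23. Probe 4 read 237 against 238 and 180.0 against 275, with log2 ratios of 0.00 and -0.57. On the male array the 4 probes were all below 0, from -0.57 to -0.16, while on the female array they ran from -0.36 to 0.18. No probe of Cd44 thus read higher on both arrays, as its ligand did. Cd44 transcripts differ by variable exons, and which of them each probe reads was not analysed here.

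**Figure D2:**
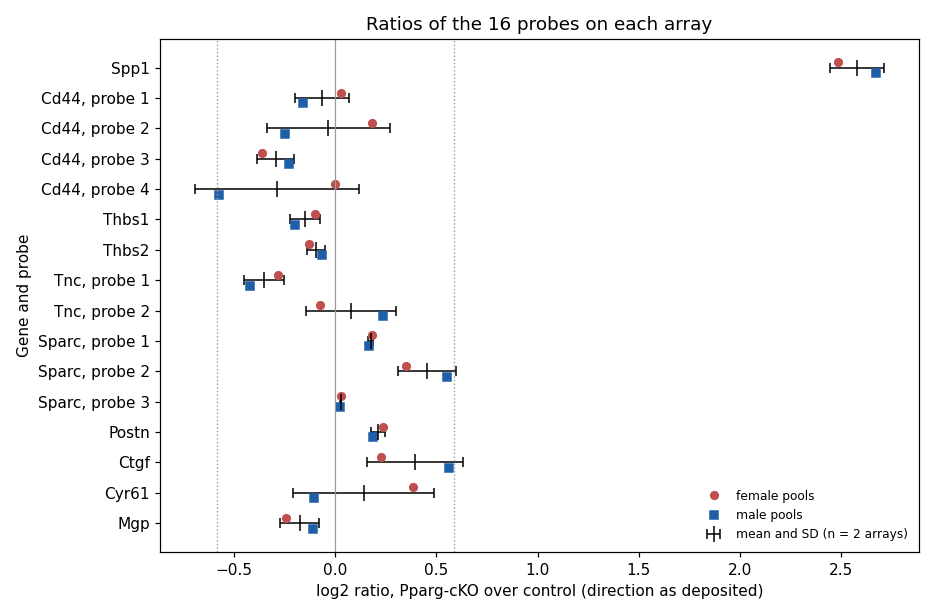
Log2 ratio of Pparg-cKO over control (direction as deposited) for each of the 16 probes on the female (circles) and the male (squares) array, with the mean and SD of the 2 arrays (n = 2); dotted lines mark 1.5-fold. The Spp1 probe stands at 2.58, and the other 15 have means between -0.35 and 0.45.

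Set in order of the mean log2 ratio, the genes ran from Spp1 (2.58) through Ctgf (0.39), Postn (0.21), Sparc (0.17), Cyr61 (0.14), Cd44 (-0.07), Thbs2 (-0.10), Thbs1 (-0.15) and Mgp (-0.18) to Tnc (-0.35). Between Spp1 and Ctgf the ranges of mean ± SD lay apart, and between all other neighbours in this order they overlapped. Spp1, Sparc, Postn and Ctgf were higher on both arrays, Thbs1, Thbs2, Tnc and Mgp were lower on both, and Cd44 and Cyr61 had a different sign on each. Of the 22499 genes well above background, 5986 were higher on both arrays and 5887 lower on both. In processed signal, both Pparg-cKO pools exceeded both control pools for 4 genes (Spp1, Sparc, Postn and Ctgf), beside 14.0% of all bright genes. They lay below both for 3 genes (Thbs1, Thbs2 and Tnc), beside 20.8% of all. The median over the 10 genes was 0.04, against 0.01 over the 22499 genes that were well above background. Without Spp1, the percentile of these genes among all 29923 mean ratios ran from 2.40 (Tnc) to 97.4 (Ctgf).

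The genes whose pair of ratios lay nearest to that of Spp1 were found by the distance between log2 ratios over the 2 arrays, among bright genes with a gene symbol. They were Arhgef38, a guanine nucleotide exchange factor, at a distance of 0.05, Msln, the mesothelial and epithelial surface protein mesothelin, at 0.05, Clca1, a secreted protein of mucous epithelia, at 0.17, Tspan1, a tetraspanin, at 0.24, and Krt6a, a keratin of stressed and squamous epithelium, at 0.41. Msln read 3085 against 514 signal units in the female and 4384 against 726 in the male pools. Clca1 read 116 against 8.21 and 147 against 8.58, Arhgef38 135 against 8.0004 and 149.9 against 9.22, Tspan1 207 against 25.9 and 278 against 31.3, and Krt6a 238 against 34.0 and 366 against 61.8. Each had both Pparg-cKO pools above both control pools, which follows from their choice by likeness to Spp1, so nothing is read from it. Only Msln read at least 100 in the control pools, and the others met the intensity threshold through the Pparg-cKO pools. On the male array the control readings of Clca1 and Arhgef38 were well above background in only part of their spots. The likeness depended on the background offset, which shrinks ratios at low signal. With the processed signals of the scanner software, a comparison added after the data were seen, Spp1 had log2 ratios of 2.76 and 2.86 while Arhgef38 had 4.08 and 4.05 and Clca1 3.83 and 4.12, and only Msln, Tspan1 and Krt6a were still among the 5 nearest, with Cldn3 and Fxyd4. Without the offset the same 3 remained, with Cldn3 and Slc6a14. The sizes of Arhgef38 and Clca1 are therefore not established as like that of Spp1.

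**Figure D3:**
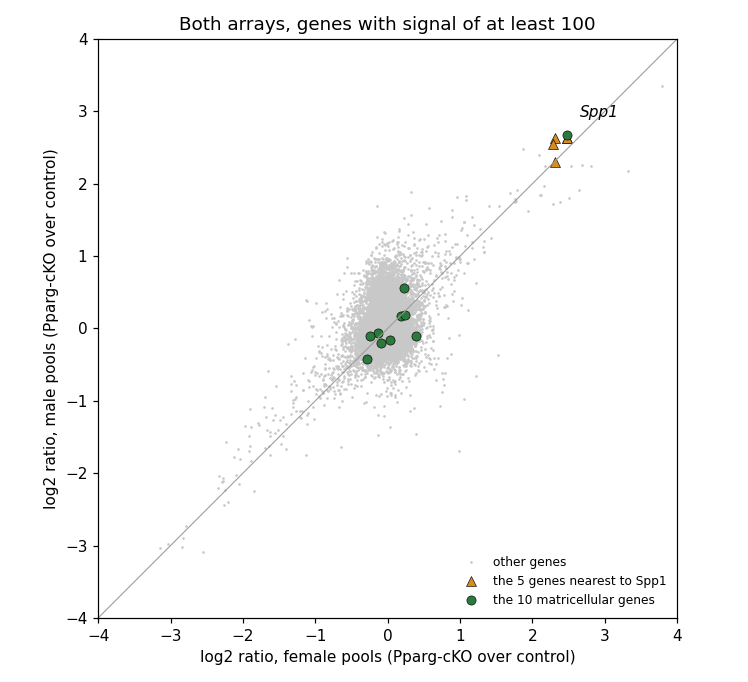
Log2 ratio of Pparg-cKO over control on the female array (x axis) and on the male array (y axis) for the 14015 genes with a signal of at least 100 on both arrays (grey), with the 10 matricellular genes (green circles) and the 5 genes nearest to Spp1 (orange triangles); the line marks equal ratios. Spp1 (2.48 and 2.67) lies at the upper right with its 5 nearest genes, and the other 9 lie within the central cloud.

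Genes that share a pathway with osteopontin were read from lists put together by function, although with earlier results of these arrays known. They were tested with limma, an empirical Bayes test on the mean of both log2 ratios, adjusted by Benjamini-Hochberg over 22499 genes. Of these genes 0.751% were called at an adjusted p under 0.05, and 8.51% had an unadjusted p under 0.05. The median log2 ratio over all of them was 0.01, with 5986 higher on both arrays and 5887 lower on both.

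Receptors of osteopontin and of the other matricellular proteins were not called. The list held the integrin chains Itgav, Itgb1, Itgb3, Itgb5, Itgb6, Itgb8, Itga4, Itga5, Itga8 and Itga9, with Cd47, Cd36, Lrp1, Sdc1 and Sdc4. Of these 15 genes limma called 0, with 0 at an unadjusted p under 0.05, and their median log2 ratio was 0.07. Itgav, the alpha chain of the main osteopontin-binding integrins, had 0.20 (female pools) and 0.06 (male pools). The highest mean was that of Sdc4, a heparan sulphate proteoglycan, at 0.44, which came from the male array (0.80) more than the female (0.08).

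The genes closest in kind to Spp1, which lie next to it on chromosome 5, are Dspp, Dmp1, Ibsp and Mepe, acidic phosphoproteins of bone and tooth. Dspp and Dmp1 were not well above background. Mepe had a mean log2 ratio of 0.01 ± 0.02 (SD, n = 2 arrays). Ibsp, bone sialoprotein, read 3.38 against 23.5 signal units in the female and 4.52 against 35.4 in the male pools, with a mean log2 ratio of -1.14 ± 0.31 (limma adjusted p = 0.0580). In the Pparg-cKO pools Ibsp was well above background on 1 of the 2 arrays. Of the 2 relatives that were tested limma called 0, with 1 (Ibsp) at an unadjusted p under 0.05 (8.51% of all genes tested had one).

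Among 27 other matricellular and related matrix genes, 25 were tested and limma called 0, with 2 at an unadjusted p under 0.05 (Nov and Spock3). Of all genes tested 8.51% had such a p. Comp and Tnr were not well above background. Their median log2 ratio was 0.06, and 10 were higher on both arrays and 3 lower on both. Nov, a further member of the CCN family, had 0.58 (female pools) and 0.15 (male pools) at a limma adjusted p of 0.584, while the family members Wisp1, Wisp2 and Wisp3 had mean log2 ratios of -0.28, -0.04 and -0.02. Spock3, a testican proteoglycan related to Sparc, had a mean of -0.61 ± 0.24 (SD, n = 2 arrays; limma adjusted p = 0.219). Fn1, fibronectin, had 0.05 and 0.76, and Dcn, decorin, 0.05 and 0.04.

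Hyaluronan genes, which make, bind or degrade the main ligand of Cd44, or link Cd44 to actin (Ezr, Msn and Rdx), were 13 in number. Limma called 0 of them, with 0 at an unadjusted p under 0.05, and their median was 0.07. Proteases that cut osteopontin gave the same count: 0 of 5 called and 0 unadjusted, with Mmp7 and Mmp12 not well above background. F2, prothrombin, read 18.7 against 20.9 in the female but 18.4 against 47.5 in the male pools. Prothrombin is made by hepatocytes, and the liver markers Alb, Afp and Apoa1 summed to 1038 against 1165 in the female and 1236 against 2740.5 in the male pools, and their part in the value of F2 was not tested.

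Genes of mineral balance, relevant because osteopontin and matrix Gla protein restrain calcification, were 11, of which 10 were tested. Limma called 1, with 4 at an unadjusted p under 0.05, beside 0.751% called and 8.51% unadjusted over all genes tested. Bglap, which encodes the bone matrix protein osteocalcin, read 23.2 against 130.1 signal units in the female and 18.1 against 80.6 in the male pools. Its mean log2 ratio was -1.65 ± 0.17 (SD, n = 2 arrays), at a limma adjusted p of 0.0120. It fell in both pairs, but the male pools were too dim for the fold rule. A dimmer probe of Bglap was not well above background in most spots, and with the median over both probes the adjusted p in limma was 0.0541; over all 8 alternatives it ran from 1.07e-05 to 0.533, the highest on the deposited table. Mice carry close copies of this gene, which its probe may also detect. Bglap2 and Bglap3, looked up after the value of Bglap was seen, had mean log2 ratios of -1.63 ± 0.37 and -1.66 ± 0.44 (SD, n = 2 arrays), with limma adjusted p of 0.0276 and 0.0366. Bglap2 read 394 against 1464 signal units in the female and 342 against 927 in the male pools. Bglap3 read 284 against 1111 and 253 against 694. Probes of these copies may likewise detect Bglap, so their values are not independent of it. The copies were not followed through the alternatives, but on the deposited table limma called 0 genes. The other 3 genes at an unadjusted p under 0.05 were Bmp2, a bone morphogenetic protein, with log2 ratios of -0.97 and -0.25, Enpp1, which makes the mineralisation inhibitor pyrophosphate, with -0.39 and -0.19, and Ank, a pyrophosphate transport protein, with 0.20 and 0.38. Their adjusted p in limma ran from 0.461 (Bmp2) to 0.585 (Enpp1). Ggcx, which carboxylates Mgp, and Vkorc1, which recycles the vitamin K this needs, had mean log2 ratios of 0.07 and -0.09. Ahsg, a calcification inhibitor made by the liver, read 459 against 466 in the female but 499.9 against 1069 in the male pools. The liver markers summed lower in both pairs, by more in the male pair. Their part in the value of Ahsg was not tested.

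Target genes of YAP and TEAD other than Ctgf and Cyr61 were 20, all tested. Limma called 0, with 7 at an unadjusted p under 0.05 (8.51% of all genes tested had one). The fold rule was passed by 2, both higher, and by 0.792% of all bright genes in that direction. Gadd45b, a stress-induced gene, read 657 against 366 signal units in the female and 875 against 423 in the male pools. Its mean log2 ratio was 0.96 ± 0.16 (SD, n = 2 arrays), at a limma adjusted p of 0.0510. F3, tissue factor, read 2185 against 1293 and 2905 against 1537, with a mean of 0.86 ± 0.12 (limma adjusted p = 0.0605). In this list 13 genes were higher on both arrays and 4 lower on both, with a median log2 ratio of 0.17. Ankrd1, with Ctgf and Cyr61 a much used readout, had a mean of 0.02 at signals of 5.20 to 6.70.

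**Figure D4:**
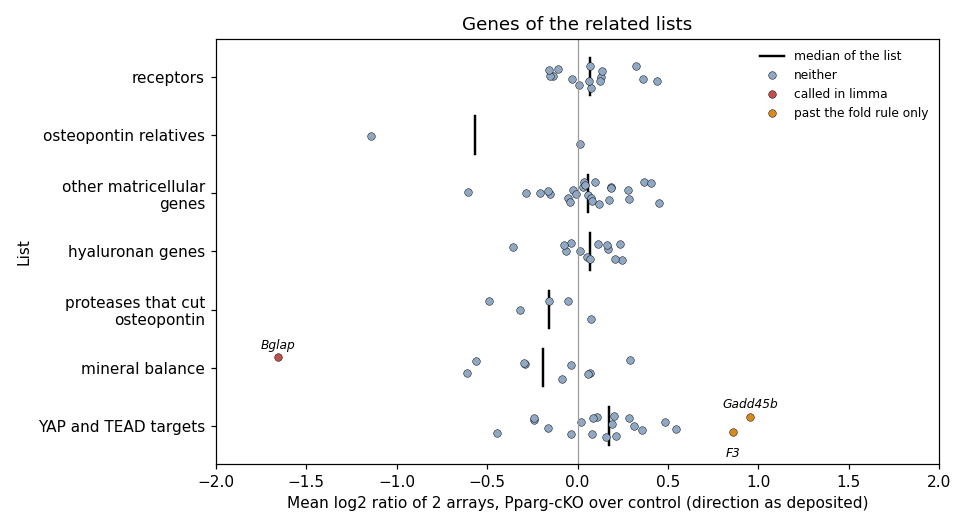
Mean log2 ratio of the 2 arrays (x axis, direction as deposited) of each gene that was tested in the 7 related lists (rows), coloured by whether limma called it or it passed the fold rule alone; black bars are list medians and vertical jitter has no meaning. Bglap (-1.65) was the 1 gene called, and Gadd45b (0.96) and F3 (0.86) passed the fold rule alone.

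The markers of the labelled tissue were well above background. The smooth muscle genes Acta2, Tagln, Myh11 and Cnn1 summed to between 91005 and 104944 signal units in the 4 pools. The 6 urothelial genes summed to 15890 in the Pparg-cKO and 26621.5 in the control pool of the female pair. In the male pair they summed to 21490 and 23963. The part of urothelial cells in the Spp1 values was not tested. Of the urothelial markers 3 were lower on both arrays (Upk1b, Upk2 and Trp63) and 2 higher on both (Cdh1 and Epcam), and Upk1b passed the fold rule with log2 ratios of -1.30 and -0.73. Krt5 had -0.86 (female pools) and 0.35 (male pools). The arrays were similar in depth, with a median spot signal between 293 and 334 in each channel, and 0 spots were saturated.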

How the data were processed

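The deposited scanner files held spot intensity in both dyes from Agilent Feature Extraction 10.7.3.1, a processed signal and, per the file headers, a log10 ratio of red over green that was not used in a result. The authors' deposited value table held a signed fold score per probe and array (a fall written as negative). Per the study's methods, genes were filtered there by intensity and fold change. The 10 genes and all lists were chosen with earlier results of these data known.

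Mean signals were background-corrected with normexp (offset 50) and dye ratios were normalised by loess per array, leaving control spots without weight (limma 3.58.1, R 4.3.3). The offset pulls ratios of dim probes towards 0. Outlier spots (2.87% and 3.24%) were dropped and up to 4 spots averaged per probe. A gene was represented by its brightest probe. Processed signals are printed as levels and gave ratios only in an alternative that is named as such. Both ratios were turned as in the deposited table, whose correlation with red over green was 0.905 and -0.932 across probes. The limma fit, two-sided, had 1 residual and 4 prior degrees of freedom, covered genes well above background in a channel on both arrays, and was tested on simulated data. The number of arrays limits the precision, and p-values cover only the spread between 2 arrays. Named genes were the 10 with all probes, list members past the fold rule or called, the 5 nearest to Spp1, and Pparg, Krt20 and Shh. Other list genes were named for their function or their value after it was seen. Bglap2 and Bglap3 were added after the value of Bglap was seen, and Cldn3 and Slc6a14 as near to Spp1 under an alternative. Emr1 was read under its current symbol Adgre1. Alternatives changed the normalisation, offset, spots, summaries, thresholds and arrays.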

Additional observations from a re-analysis of the deposited data

Results flagged for a closer look

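Genes among the 10 described and the 90 tested of the related lists that moved in opposite directions on the arrays, by at least 1.2-fold on each, were looked for because each sex was measured on 1 array. Of 100 genes compared 2 did so. Hyal1, a lysosomal hyaluronidase, had a log2 ratio of -0.37 (female pools) and 0.40 (male pools), a male minus female difference of 0.78. Lgals3, or galectin 3, had -0.31 and 0.29, a difference of 0.60. Among all genes tested 310 (1.38%) met the same criterion. The difference was not tested, and sex, dye orientation and array cannot be told apart.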

How the results depend on the processing

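The 10 genes were recomputed under 7 other ways of processing the signals, which gave 70 log2 ratios. Of these 69 kept their direction, the exception being Cd44 with median centring in place of loess (0.01), and 64 stayed within 1 SD. Sparc was 0.07 and Postn 0.14 with median centring, and Tnc was -0.14 with the median over all probes. Spp1 was the 1 gene of the 10 past the fold rule in every setting tried, also on each array alone. The number of all genes past the fold rule was 258, and became 112 with a 2-fold threshold and ran from 444 to 1253 with 1 array left out. The balance turned on the male array alone, with 965 higher and 288 lower, against 176 and 268 on the female array alone. With median centring 115 were higher and 102 lower, against 111 and 147. The number called in limma was 169. It became 571 with normexp without an offset, 94 with no filter on dim probes and 0 on the deposited value table, where limma gave 2101 genes an unadjusted p under 0.05. On that table the adjusted p in limma was 0.533 for each of Bglap, Fxyd4, Pparg, Krt20, Shh, Gadd45b, F3 and Ibsp. Over the 8 alternatives the call held in 7 for Fxyd4 and Krt20, in 6 for Bglap and in 4 for Pparg, while Gadd45b and Ibsp passed in 4, Shh in 3 and F3 in 2. The test is already a paired one, since the ratio of each array is the difference within its pair of pools, and no further replicate block could be fitted to 2 arrays of a single group.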
